A study of Rattus norvegicus with 8 samples.

Results

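The records described here are those whose abundance differed at least 3-fold between every Wistar rat and every spontaneously hypertensive rat (SHR) in the stellate ganglion. A record is 1 RefSeq transcript, and its level is given as TPM, a share of all transcripts that is corrected for transcript length. The members were chosen by their deposited TPM. A record was included when the lowest TPM of 1 strain's 4 rats was at least 1 and at least 3 times the highest TPM of the other strain's 4 rats. Of 18314 records, 41 met this rule, which is 0.224% of all. Of these, 17 were higher in SHR (0.0928%) and 24 were higher in Wistar (0.131%). Among the 10693 records with at least 1 TPM in every rat of a strain, the 41 were 0.383%, and 1197 (11.2%) showed no overlap between the strains at all. Because the levels themselves chose the records, their differences are a description and carry no test. A gene symbol could be given to 39 of the 41 records, and NM_080892 and NM_001014221 are called by their identifiers.

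The study compared right stellate ganglia of 4 male SHR and 4 male Wistar rats, all aged 16 weeks, with 1 ganglion of 1 rat per library. SHR is an inbred strain that develops high blood pressure without treatment and was taken at an age with established hypertension, and Wistar is an outbred stock that served as the normotensive control. No rat was treated, and the strains have separate breeding histories, so blood pressure and strain cannot be told apart. Total estimated counts ran from 25820299 to 35509074 per rat and overlapped between the strains (p = 0.286 by a two-sided exact permutation test, which can reach 0.0286 at the lowest with these group sizes), and no library was a copy of another. Of 18 sympathetic neuron markers 17 had a record, all 17 reached 1 TPM, and their summed TPM was 29663 to 35534 in Wistar and 30836 to 35827 in SHR. Without Npy, the largest of them, it was 15219 to 17162 and 11984 to 16496 TPM. By edgeR's quasi-likelihood test 3 of the 20 records of this list were called, all lower in SHR. These were Ddc NM_001270852 (162 ± 9 against 76.4 ± 9.6 TPM, SD, n = 4 each), Ddc NM_001270853 (54.7 ± 3.1 against 28.8 ± 4.4 TPM) and Chrnb4 (359.5 ± 38.6 against 231 ± 53 TPM), of dopamine synthesis and nicotinic transmission. Over all 13659 tested records 2.85% were called, with 1.69% lower in SHR. The median log2 fold change of the list was -0.168, against 0.00703 over all tested records. The calls are of 2 genes, and a shift of the list as a group was not tested.

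The stellate ganglion holds sympathetic neurons that send noradrenergic axons to the heart, together with satellite glia, Schwann cells, vessels, blood and macrophages. In such bulk tissue, fewer cells of a type and less RNA per cell cannot be told apart. A record can also differ between strains when a gene makes another of its transcripts, or when related transcripts share sequence and the quantification divides the reads among them. For this reason it is given below which records had whole counts and which shared reads. Oas1d, Perp, Tmprss3, H2bc12 and Pcdhga1 had counts that were not whole in 2, 8, 8, 6 and 8 rats, with no partner found, so some of their reads were divided with other records.

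**Figure D1:**
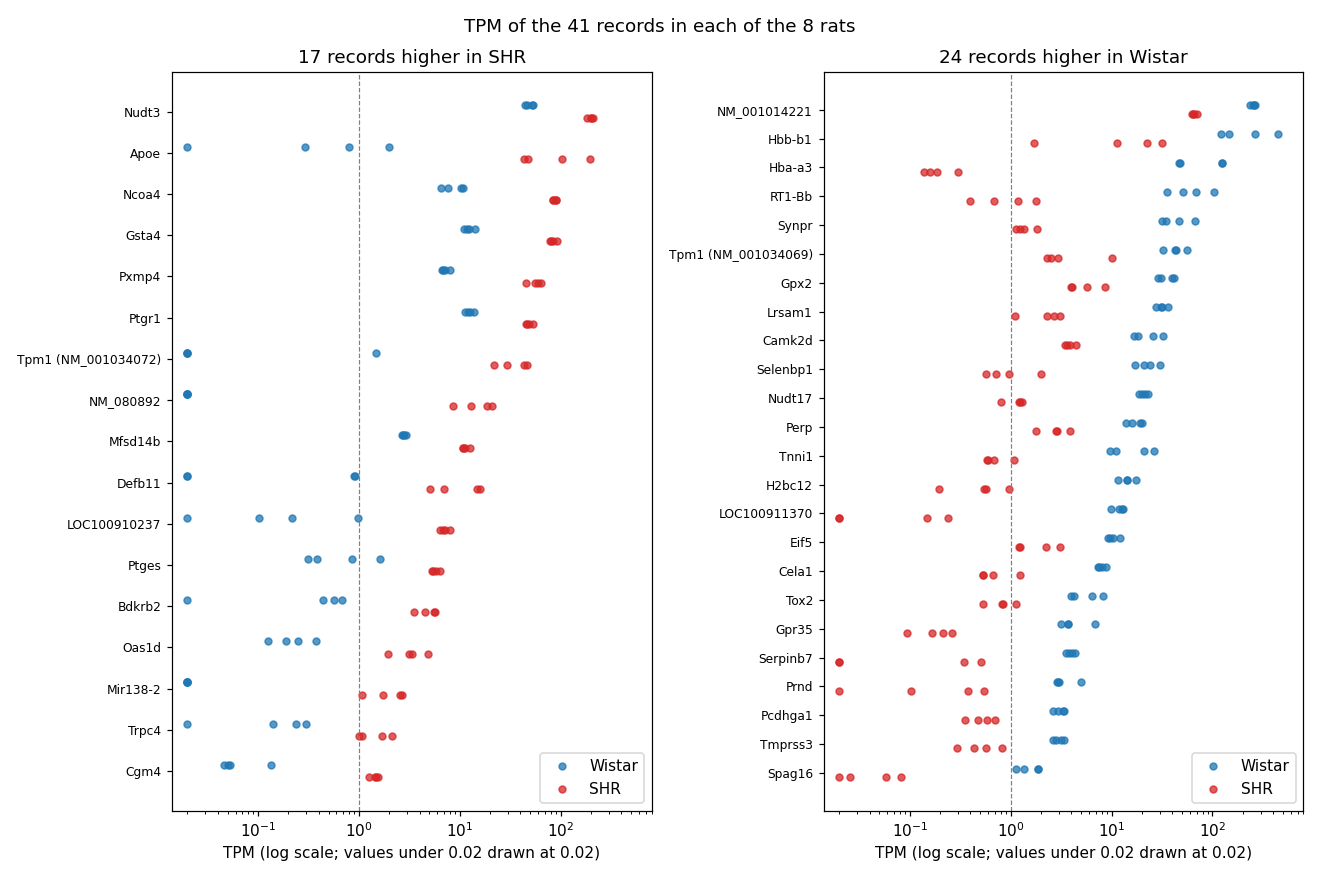
TPM of the 41 records in each of the 8 rats on a log axis, Wistar in blue and SHR in red, with values under 0.02 TPM drawn at 0.02 and the dashed line at 1 TPM. The left panel holds the 17 records higher in SHR and the right panel the 24 higher in Wistar, each ordered by its level in the higher strain. Nudt3 and NM_001014221 lie at the top of their panels with close rats, whereas Apoe and Hbb-b1 are drawn out.

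Of the 17 records higher in SHR, 7 had whole estimated counts in all rats, so their reads were assigned to no other record. Pxmp4, Ptgr1, Ptges and Mfsd14b were among them, and Nudt3 departed from whole counts in 1 rat. Pxmp4, a peroxisomal membrane protein, stood at 7.92, 6.73, 6.80 and 7.09 TPM in Wistar rats 1 to 4 and at 45.2, 63.4, 59.8 and 56.2 TPM in SHR rats 1 to 4. Every SHR rat was far above a narrow Wistar range, and the strain means of 7.13 ± 0.55 and 56.1 ± 7.9 TPM (SD, n = 4 each) lay 7.87-fold apart. Nudt3, a Nudix hydrolase that acts on inositol pyrophosphates, was the most abundant of the 17 in SHR. It measured 51.5, 44.4, 52.8 and 45.9 TPM in Wistar and 181, 208, 202 and 199.8 TPM in SHR. The rats of each strain lay close together, with a coefficient of variation (SD divided by the mean) of 5.80% in SHR, and the means were 4.07-fold apart. Mfsd14b, a membrane transporter of the major facilitator family, was at 2.69 to 2.91 TPM in Wistar and 10.7 to 12.6 TPM in SHR.

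Both prostaglandin enzymes of the 41 were higher in SHR. Ptges, the inducible synthase that makes prostaglandin E2, was at 0.315, 0.381, 1.63 and 0.863 TPM in Wistar and at 6.39, 5.30, 5.40 and 5.79 TPM in SHR. It was low in all Wistar rats, with the highest of them at 1.63 TPM, and nearly level among the SHR rats. Ptgr1, a reductase that inactivates prostaglandins and leukotriene B4, was at 13.9, 12, 11.3 and 12.6 TPM in Wistar and at 53.4, 48.7, 45.6 and 46.3 TPM in SHR. These records were the nearest inside the 3-fold limit on the SHR side, with the lowest SHR rat 3.26 and 3.28 times the highest Wistar rat.

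Gsta4 and Gpx2, both enzymes that use glutathione, were apart in opposite directions. Gsta4, a glutathione S-transferase that conjugates the lipid peroxidation product 4-hydroxynonenal, was at 11, 11.9, 14.3 and 12.4 TPM in Wistar and at 80.3, 92.1, 78.6 and 83.3 TPM in SHR. It shared some reads with Gsta4l1, and the sum of both records remained apart, with the lowest SHR rat at 5.44 times the highest Wistar rat. Gpx2, a glutathione peroxidase best known from the gut epithelium, was at 39.9, 41.9, 31.0 and 29.0 TPM in Wistar and at 8.58, 5.70, 3.94 and 4.03 TPM in SHR. Every SHR rat was thus below every Wistar rat for Gpx2 and above for Gsta4. In the list of glutathione and drug metabolism genes, 40 records were tested by edgeR's quasi-likelihood test, of which 4 were called higher and 2 lower in SHR at an adjusted p under 0.05. Of all 13659 records tested, 389 were called (2.85%), with 1.16% higher and 1.69% lower in SHR. The list's count includes Gsta4, which the rule chose by the same values. The list was also drawn up with earlier results of these data known, so nothing is read from its share of calls. The 41 had 39 called records and 2 that were not tested, but the rule used that contrast and nothing is read from this count.

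The 250 bases before the start of 4 of these genes are shown for a look at what lies upstream of abundant records of known enzymes and a peroxisomal protein in both directions. Pxmp4 and Gsta4 are higher in SHR, and Nudt17 and Gpx2, described with the Wistar records, are higher in Wistar. The 4 were chosen after their values were seen. The sequences are those of RefSeq on the GRCr8 build, read 5′ to 3′ on the gene's strand, and capitals mark the CCAAT box, the GC box GGGCGG, the letters TGACNNNGC and the TATA box TATAAA, each on either strand and with no overlap between them.
Pxmp4, chr3:163570830-163571079, minus strand: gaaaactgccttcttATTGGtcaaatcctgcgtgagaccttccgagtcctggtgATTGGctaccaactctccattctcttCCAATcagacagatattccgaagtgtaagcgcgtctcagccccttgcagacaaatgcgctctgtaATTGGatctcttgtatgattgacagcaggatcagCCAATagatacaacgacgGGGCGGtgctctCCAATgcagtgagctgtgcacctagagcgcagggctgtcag
Gsta4, chr8:87947015-87947264, plus strand: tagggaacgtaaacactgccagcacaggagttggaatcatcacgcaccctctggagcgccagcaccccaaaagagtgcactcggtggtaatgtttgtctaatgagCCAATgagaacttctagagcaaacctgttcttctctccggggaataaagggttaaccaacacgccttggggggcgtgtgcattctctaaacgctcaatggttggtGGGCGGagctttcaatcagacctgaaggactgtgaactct
Nudt17, chr2:186932798-186933047, minus strand: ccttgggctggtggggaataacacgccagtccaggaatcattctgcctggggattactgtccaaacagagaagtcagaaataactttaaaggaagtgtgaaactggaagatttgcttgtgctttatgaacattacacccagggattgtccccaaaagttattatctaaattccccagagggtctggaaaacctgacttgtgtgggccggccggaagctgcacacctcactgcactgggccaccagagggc
Gpx2, chr6:101230034-101230283, minus strand: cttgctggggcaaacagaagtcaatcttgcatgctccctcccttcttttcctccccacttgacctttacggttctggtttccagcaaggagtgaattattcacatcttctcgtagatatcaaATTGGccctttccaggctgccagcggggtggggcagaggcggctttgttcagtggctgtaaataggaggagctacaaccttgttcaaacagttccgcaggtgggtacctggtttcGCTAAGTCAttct
The Pxmp4 window holds 6 copies of CCAAT, a number reached by 11 of 33469 windows, and 1 GGGCGG. The Gsta4 window holds 1 CCAAT and 1 GGGCGG, and the Gpx2 window holds 1 CCAAT and 1 TGACNNNGC, the core letters of the antioxidant response element. None of these letters is in the Nudt17 window. Over the 32 genes of the 41 records with a window, CCAAT was in 14 (43.8%, against 34.0% of all windows), GGGCGG in 13 (40.6%, against 30.5%), TATAAA in 6 (18.8%, against 12.9%) and TGACNNNGC in 5 (15.6%, against 10.1%). The shares of the 41 records count genes, whereas the shares of all windows count single windows. A gene with several windows has more chances to hold the letters, so no excess is read from these percentages. The presence of these letters is a description of the window and not a binding site.

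Of receptors and channels, Bdkrb2 and Trpc4 each gave a record higher in SHR. The Bdkrb2 record NM_001270713, which encodes the bradykinin B2 receptor, was at 0.681, 0.566, 0 and 0.444 TPM in Wistar and at 5.57, 3.53, 5.72 and 4.52 TPM in SHR. It shared reads with the gene's other record, and the summed gene was still apart, at 0.920 to 1.48 TPM in Wistar and 5.18 to 7.79 TPM in SHR. The Trpc4 record NM_080396, of a receptor-operated cation channel, was at most 0.297 TPM in Wistar and at 1.01 to 2.12 TPM in SHR. Summed with the other Trpc4 record it fell short of the rule, with the lowest SHR rat 2.82 times the highest Wistar rat. Oas1d, of the interferon-induced oligoadenylate synthetase family, was at 0.126 to 0.375 TPM in Wistar and 1.96 to 4.87 TPM in SHR. Cgm4, of the carcinoembryonic antigen family, was at 0.0459 to 0.135 TPM in Wistar and 1.25 to 1.53 TPM in SHR, and its sum with Psg16, with which it shared reads, met the rule too.

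Of the records higher in SHR, 3 were short or non-coding with few reads. The non-coding LOC100910237 had 1, 0, 9 and 2 counts in Wistar and 61, 59, 53 and 70 counts in SHR, so the strains were apart at low depth, with Wistar 3 the highest of its strain. Defb11, a beta-defensin whose record is 210 bases long, had 0, 0, 1 and 1 counts in Wistar and 17, 6, 15 and 6 counts in SHR. Mir138-2, the 82-base hairpin of miR-138, had no count in Wistar and 2, 1, 3 and 3 counts in SHR. These SHR counts are at or under the 3 counts per library taken as the limit that a count of 0 allows, so no fold is given and the difference was not detectable at this depth. The reads of a hairpin record cannot be assigned to its mature arms, of which the 5′ arm is given here from RefSeq with its seed in capitals.
rno-miR-138-5p: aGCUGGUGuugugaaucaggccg

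**Figure D2:**
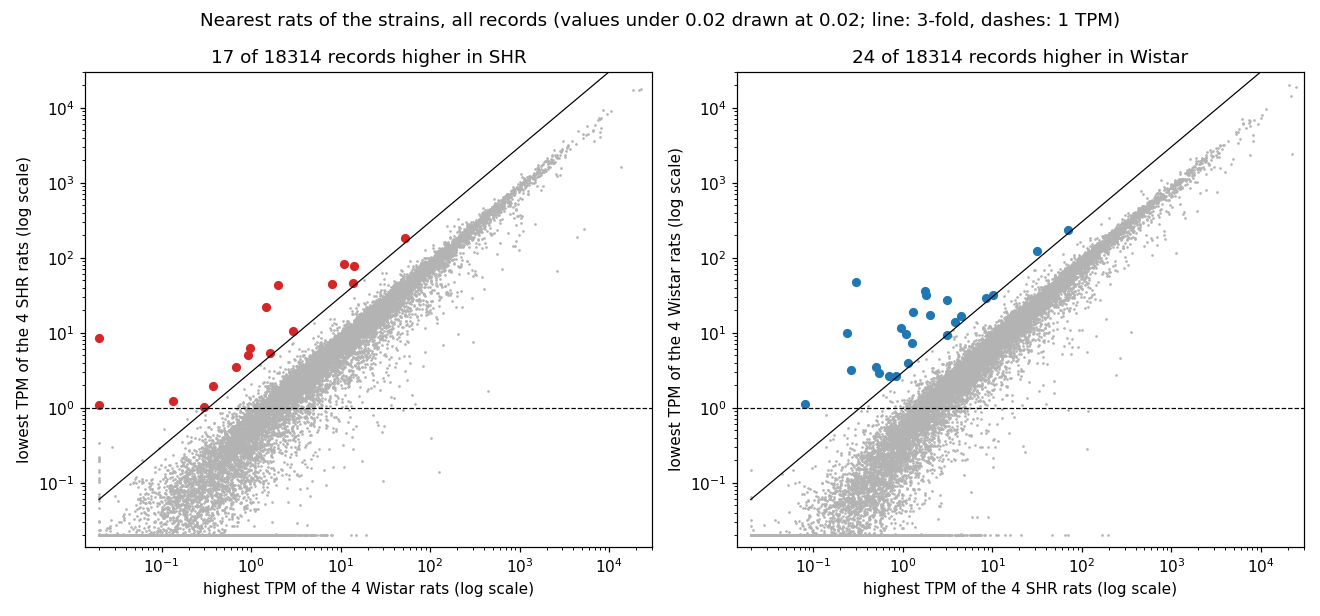
The rule over all 18314 records on log axes, with the highest TPM of the lower strain on the horizontal axis, the lowest TPM of the higher strain on the vertical axis and values under 0.02 drawn at 0.02. Records above the solid 3-fold line and the dashed 1 TPM line are the 17 higher in SHR (red) and the 24 higher in Wistar (blue), and the other records (grey) run in a band below the line.

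Of the 24 records higher in Wistar, 13 had whole estimated counts in all rats. NM_001014221, which carries no symbol in the tables used, was the most abundant at 258, 263, 237 and 253 TPM in Wistar and 65.5, 69.6, 63.0 and 63.9 TPM in SHR. Its rats were the closest of all 24, with a coefficient of variation of 4.45% in Wistar, and the means of 253 ± 11 and 65.5 ± 2.9 TPM (SD, n = 4 each) were 3.86-fold apart. Nudt17, another Nudix hydrolase, was at 21.5, 18.9, 20.3 and 22.8 TPM in Wistar and at 1.20, 1.24, 1.28 and 0.812 TPM in SHR. All SHR rats were near 1 TPM, and the means were 18.4-fold apart. The Nudix family gave 1 record in each direction, Nudt3 higher in SHR and Nudt17 higher in Wistar.

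Synpr encodes synaptoporin, a membrane protein of synaptic vesicles. It was at 31.4, 67.8, 47.1 and 34.7 TPM in Wistar and at 1.82, 1.37, 1.23 and 1.12 TPM in SHR, so the spread was among the Wistar rats and the SHR rats were uniformly low. The means were 32.7-fold apart. The sum of the sensory neuron markers, of which 4 of 8 genes with a record reached 1 TPM, was 30.6 to 61.7 TPM in Wistar and 19.8 to 27.6 TPM in SHR. Without Calca, which encodes the peptide CGRP, it overlapped at 6.50 to 15.7 TPM in Wistar and 10.5 to 12.2 TPM in SHR. By edgeR's test 1 of the 12 tested records of the list was called lower in SHR, Calca NM_001033955 (17.9 ± 5.7 against 6.34 ± 1.93 TPM, SD, n = 4 each), and 1 higher, P2rx3 NM_031075 (1.30 ± 0.53 against 4.5 ± 1.6 TPM). Over all tested records 1.69% were called lower and 1.16% higher in SHR. Scn10a, a defining sodium channel of nociceptors, was at or below 0.206 TPM in all 8 rats. The part of such cells in the Synpr difference was not tested. The Camk2d record NM_012519, of a calcium- and calmodulin-dependent kinase, was at 16.7, 18.5, 32.8 and 25.7 TPM in Wistar and at 3.66, 3.43, 3.92 and 4.48 TPM in SHR. Gpr35, an orphan G protein-coupled receptor, was at 3.17 to 6.88 TPM in Wistar and at most 0.265 TPM in SHR.

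Tnni1, the troponin I of slow skeletal muscle, was at 11.2, 20.8, 26.4 and 9.69 TPM in Wistar and at 1.08, 0.580, 0.603 and 0.688 TPM in SHR. The Wistar rats differed among themselves by more than the SHR rats, and no rats overlapped. The summed TPM of 8 other striated muscle genes was 45.0 to 55.9 in Wistar and 49.8 to 59.6 in SHR, nearly all of it Acta1, and Ckm was at 1.12 to 2.62 TPM. Without Acta1 the sum was 4.24 to 5.58 TPM in Wistar and 2.44 to 5.38 TPM in SHR. In that list Myl1 NM_020104 (0.892 to 1.75 against 0 to 0.579 TPM) and Myh2 (0.290 to 0.615 against 0.0330 to 0.254 TPM) were also higher in every Wistar rat. The other Myl1 record, NM_001077656, overlapped between the strains (0.123 to 1.19 against 0.139 to 0.344 TPM). Acta1 (39.4 to 51.1 against 47.4 to 55.4 TPM) and Ckm (1.12 to 1.80 against 1.65 to 2.62 TPM) overlapped too, with the higher means in SHR. No other record of the list was apart between the strains. The list held no gene particular to slow muscle, and the part of muscle in the Tnni1 difference was not tested.

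Among other records higher in Wistar were 2 proteases, a protease inhibitor and a desmosomal protein. Cela1, a pancreatic-type elastase, was at 7.31 to 8.85 TPM in Wistar and 0.527 to 1.25 TPM in SHR, and the transmembrane protease Tmprss3 was at 2.64 to 3.36 and 0.296 to 0.828 TPM. Serpinb7, a serine protease inhibitor, was at 3.54, 3.75, 4.35 and 4.07 TPM in Wistar and at 0.503, 0, 0.345 and 0 TPM in SHR. Perp, a membrane protein of desmosomes induced by p53, was at 13.8 to 20.1 TPM in Wistar and 1.77 to 3.84 TPM in SHR. No SHR rat was above 3.84 TPM for any of these 4 genes.

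The rest of the Wistar records belong to no common group. H2bc12, a core histone H2B, was at 11.6 to 17.5 TPM in Wistar and 0.197 to 0.961 TPM in SHR. Tox2, a nuclear HMG-box protein, was at 3.94 to 8.29 and 0.531 to 1.14 TPM, and Pcdhga1, a gamma protocadherin of cell contacts, was at 2.62 to 3.39 and 0.354 to 0.697 TPM. Prnd, the prion-like protein doppel, was at 2.89 to 4.96 TPM in Wistar and at most 0.547 TPM in SHR. The sperm flagellum gene Spag16 and the non-coding LOC100911370 were close to absent in SHR. Spag16 had 75, 61, 50 and 42 counts in Wistar and 3, 0, 2 and 1 counts in SHR, and LOC100911370 had 135, 145, 153 and 162 counts against 3, 0, 0 and 2. No SHR count of either exceeded the 3-count limit.

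Both haemoglobin records of the 41 were higher in Wistar. Hba-a3, an alpha-globin record, was at 124, 47.1, 47.7 and 126 TPM in Wistar and at 0.298, 0.186, 0.159 and 0.140 TPM in SHR. Its SHR values rest on an estimated 1 or 2 counts in each rat. Hbb-b1, a beta-globin record, was at 443, 145, 123 and 265 TPM in Wistar and at 31.6, 22.3, 1.69 and 11.4 TPM in SHR. The Wistar rats thus fell into a high pair, 1 and 4, and a low pair, 2 and 3, for both records. The levels of the abundant globin records Hba-a1, Hba-a2 and Hbb differed widely between rats in both strains and overlapped. They made up nearly all of the summed TPM of 7 blood markers, Hbb-b1 among them. This sum was 4118 to 12712 in Wistar and 508 to 9908 in SHR, lowest in SHR 3. It does not describe S100a8 and S100a9 of the same list, which had higher means in SHR. S100a8 was at 1.09 to 4.89 TPM in Wistar and 5.37 to 21.3 TPM in SHR, without overlap. S100a9 overlapped, with means of 2.82 TPM in Wistar and 20.9 TPM in SHR. Relative to the abundant alpha-globin record Hba-a1, Hba-a3 stood at 2.37% to 2.88% in Wistar and at 0.00618% to 0.0665% in SHR. Relative to the abundant beta-globin record Hbb, Hbb-b1 stood at 6.96% to 10.1% in Wistar and 0.801% to 1.07% in SHR. On this scale the rats of a strain lay closer together than in TPM for Hbb-b1, and the strains were apart for both. Globin records share sequence and neither count was whole in any rat, so the division of reads among them is uncertain.

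**Figure D3:**
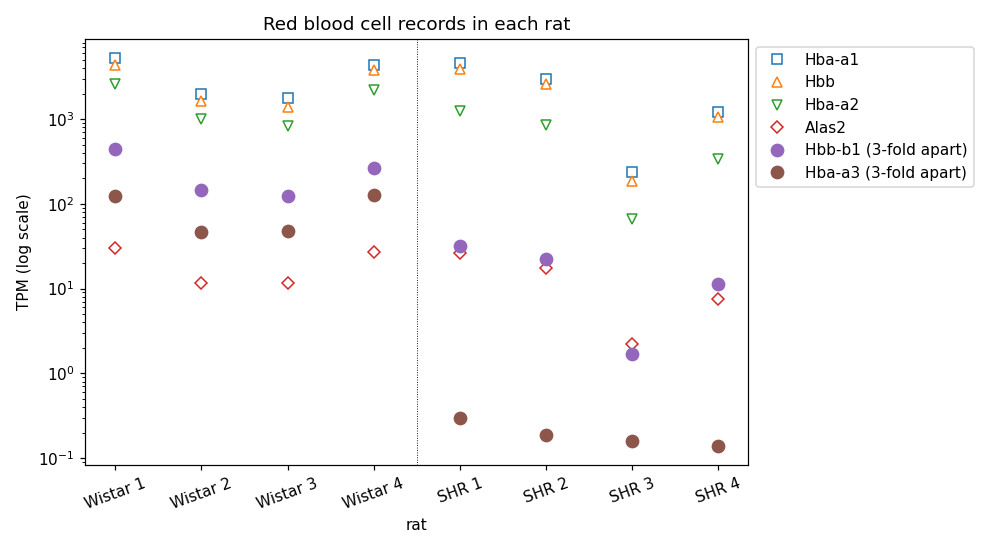
TPM of red blood cell records in each rat on a log axis. Hba-a1, Hba-a2, Hbb and Alas2 (open symbols) overlap between the strains and move together from rat to rat, with SHR 3 the lowest. Hbb-b1 and Hba-a3 (filled circles) follow the same Wistar rats but lie lower in SHR, Hba-a3 at 0.140 to 0.298 TPM.

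Reads divided among records were more common here than in the table as a whole. For 21 of the 41 records (51.2%) some rat had an estimated count that was not whole, against 26.8% of the records with at least 1 TPM throughout a strain. For 9 of the 21 a single partner was found, such that both counts added up to whole numbers within 0.02 in all 8 rats. Of the 41, 6 belong to genes with another record in the table.

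In several of these the reads of the strains were assigned to different records. Selenbp1, a selenium-binding protein that oxidises methanethiol, was at 17.3, 23.9, 30.5 and 21.1 TPM in Wistar and at 2.0, 0.721, 0.575 and 0.969 TPM in SHR. Its partner NM_080892 had no count in any Wistar rat and 21.0, 12.9, 18.5 and 8.55 TPM in SHR. In Wistar, Selenbp1 was assigned 100% of the pair. The limit of 3 counts covers counting error and not this division of reads, so no fold is given for NM_080892. The sum of the pair overlapped, at 17.3 to 30.5 TPM in Wistar and 9.52 to 23.0 TPM in SHR. NM_080892 held 89.8% to 97.0% of it in SHR.

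Ncoa4, the receptor that delivers ferritin to autophagy, also divided differently between its 2 records. NM_001034007 was at 10.8, 7.61, 10.3 and 6.52 TPM in Wistar and at 84.9, 90.6, 89.5 and 83.1 TPM in SHR, whereas NM_001034008 was at 64.3, 66.5, 65.5 and 54.7 TPM in Wistar and at 23.1, 39.0, 30.2 and 33.2 TPM in SHR. The first thus held 10.3% to 14.4% of the gene in Wistar and 69.9% to 78.6% in SHR. The gene as a whole was 71.5 ± 6.9 TPM in Wistar and 118 ± 9 TPM in SHR (SD, n = 4 each), a 1.66-fold difference without overlap.

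Tpm1, which encodes tropomyosin 1 of actin filaments, has 12 records and gave 1 in each direction. NM_001034069 was at 32.2, 55.9, 43.0 and 43.7 TPM in Wistar and at 2.50, 10.1, 2.32 and 2.96 TPM in SHR. NM_001034072 was at 46.7, 42.9, 29.3 and 21.9 TPM in SHR and near 0 in Wistar rats 1 to 3, with 1.48 TPM in Wistar 4. The former held 24.5% to 31.7% of the gene in Wistar and 1.63% to 7.92% in SHR, and the latter at most 0.845% in Wistar and 19.6% to 33.7% in SHR. The gene as a whole overlapped, at 117 to 176 TPM in Wistar and 112 to 153 TPM in SHR.

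Apoe, the lipid carrier made by satellite glia and macrophages, had the widest spread within the higher strain of all 41. Its record NM_001270684 was at 0.798, 0, 0.292 and 2.01 TPM in Wistar and at 196, 43.2, 102 and 47.8 TPM in SHR, a coefficient of variation of 73.1% in SHR. The gene's 5 records together overlapped, at 207 to 1005 TPM in Wistar and 262 to 541 TPM in SHR, and NM_001270684 held at most 0.385% of them in Wistar and 11.7% to 36.3% in SHR. The satellite glia markers, which include all 5 Apoe records, summed to 969 to 1691 TPM in Wistar and 887 to 1202 TPM in SHR. Apoe is a large part of that sum, so it is not a measure of glia apart from Apoe.

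RT1-Bb, the beta chain of an MHC class II molecule, was at 68.4, 51.3, 103 and 35.8 TPM in Wistar and at 1.77, 1.19, 0.400 and 0.677 TPM in SHR. Its partner NM_001101017 was at 10.2, 51.0, 4.65 and 38.5 TPM in Wistar and at 265, 230.2, 60.2 and 78.7 TPM in SHR, and the sum overlapped. RT1-Bb held 87.0% and 95.7% of the pair in Wistar 1 and 3, 50.2% and 48.2% in Wistar 2 and 4, and at most 0.853% in SHR. The alpha chain RT1-Ba was at 78.0 to 115 TPM in Wistar and at 88.7, 77.4, 16.4 and 37.2 TPM in SHR. Macrophage markers summed to 593 to 1053 TPM in Wistar and to 898, 819, 201 and 329 TPM in SHR. Most of the sum was Cd74, at 482 to 880 TPM in Wistar and 666, 625, 145 and 258 TPM in SHR. Each of the other markers except Cd163 was also lower in SHR 3 and 4 than in SHR 1 and 2. SHR 3 and 4 were thus low for the summed markers, for RT1-Ba and for the pair alike. The part of macrophages in the level of the pair was not tested.

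Lrsam1, a ubiquitin ligase, was at 27.5, 31.6, 36.3 and 31.0 TPM in Wistar and at 3.11, 2.68, 2.28 and 1.10 TPM in SHR. It shared reads with the overlapping gene Niban2, and the sum did not overlap between the strains but fell short of the rule, with the lowest Wistar rat 1.82 times the highest SHR rat. Eif5, a translation initiation factor, was at 9.75, 9.29, 12.2 and 10.4 TPM in Wistar and at 3.09, 1.24, 1.22 and 2.23 TPM in SHR, and its sum with the partner NM_020075 overlapped. Summed over genes, 36 of the 41 still met the rule, and summed over read-sharing pairs 35 did. Counting either, 10 were lost, namely Apoe, Ncoa4, both Tpm1 records, Trpc4, Selenbp1, NM_080892, RT1-Bb, Lrsam1 and Eif5, and 31 were left, 12 higher in SHR and 19 higher in Wistar.

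**Figure D4:**
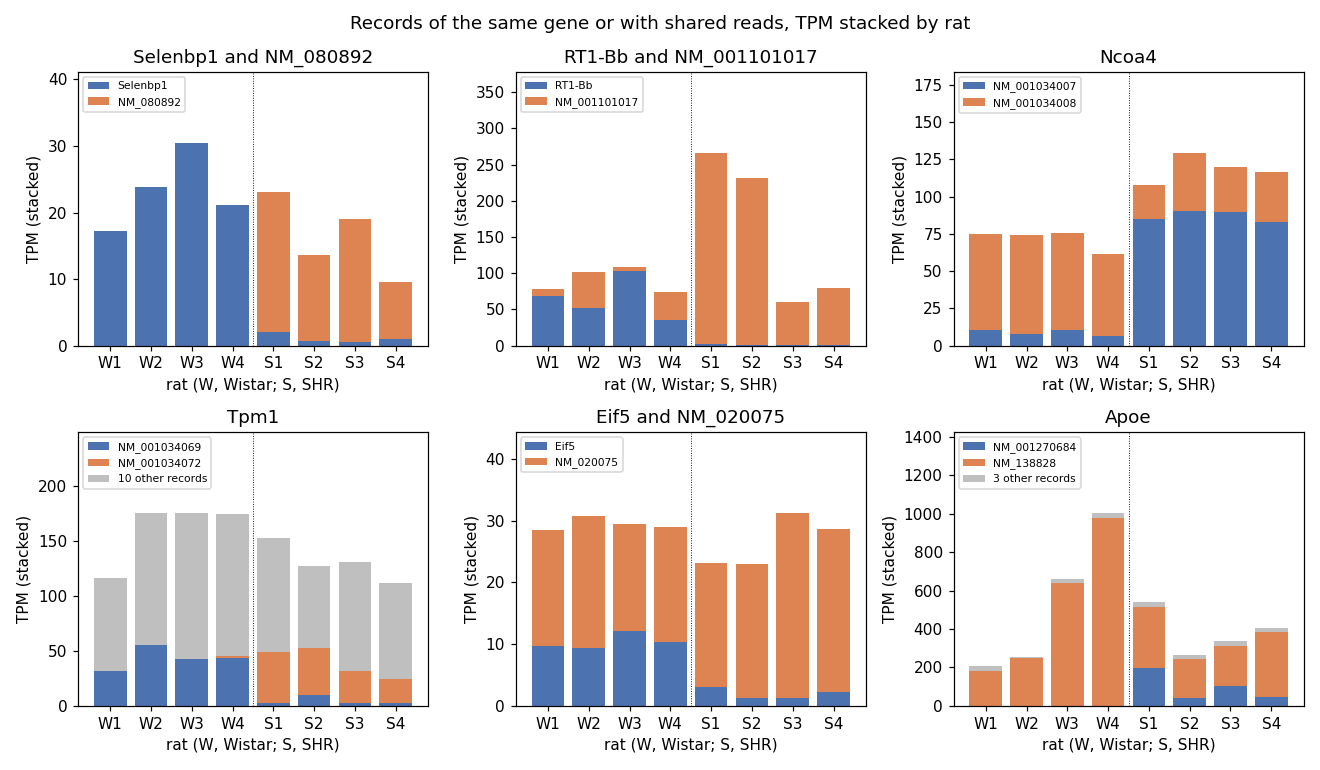
Stacked TPM by rat (W1 to W4, Wistar; S1 to S4, SHR) for records of 1 gene or of a read-sharing pair, from an axis starting at 0. The blue part, the orange part or both differ between the strains in each panel, whereas the height of the whole bar overlaps between the strains for all but Ncoa4.

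The 41 records were neither the longest nor the most abundant. Their median length was 1518 bases, 1379 for those higher in SHR and 1560.5 for those higher in Wistar, against 2078 for the records with at least 1 TPM throughout a strain, and 11 were under 1000 bases. The median of the mean TPM in the higher strain was 15.2, against 12.8 for those records. Complete absence from the lower strain was uncommon. In 24 records the highest rat of the lower strain still reached 1 TPM, in 17 it was below 1 TPM, in 3 below 0.1 TPM, and only NM_080892 and Mir138-2 had no count in any rat of the lower strain. The lowest rat of the higher strain had at least 100 counts in 30 records, and under 10 in Defb11 and Mir138-2.

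Spread within the higher strain ran from a coefficient of variation of 4.12% for Ncoa4 NM_001034007 to 73.1% for Apoe. Its median was 14.1% for the 17 records higher in SHR, against 16.7% for all records with at least 1 TPM in every SHR rat. For the 24 records higher in Wistar it was 20.1%, against 11.8% for all records with at least 1 TPM in every Wistar rat. Of the 6 records at 40% or more, Hba-a3, Hbb-b1, RT1-Bb and Tnni1 were higher in Wistar, and Apoe and Defb11 in SHR.

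**Figure D5:**
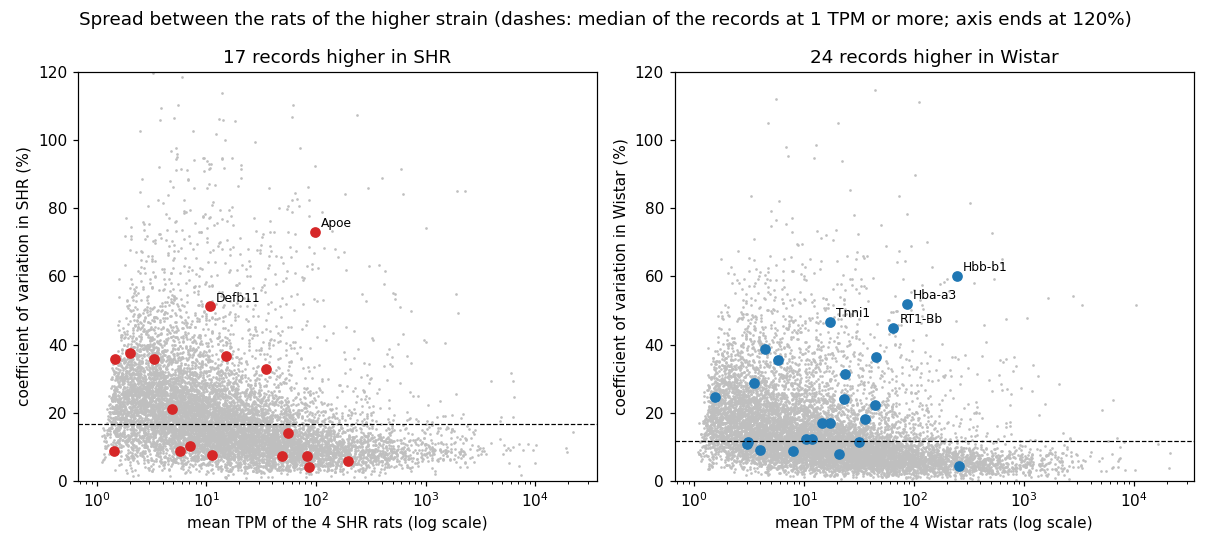
Coefficient of variation (SD over mean) among the 4 rats of the higher strain against their mean TPM (log axis), for the records of each direction (coloured) over all records with at least 1 TPM in every rat of that strain (grey; axis ends at 120%). Dashes mark the medians over those records, 16.7% in SHR and 11.8% in Wistar, and the coloured points run from 4.12% to 73.1%.

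Records near the limits of the rule are given with no test. Just inside the 3-fold limit lay Ptges, Ptgr1 and Trpc4 in SHR and Eif5 (3.01), Tmprss3 (3.18) and Tpm1 NM_001034069 (3.20) in Wistar. Just outside lay Cnksr1, with a lowest SHR rat of 3.76 TPM against a highest Wistar rat of 1.25 TPM, RT1-A1 (2.77) and Fam151a (2.68), and on the Wistar side Fbxw8 (2.97), Mal2 (2.88) and Elk3 (2.65). The nearest records below the 1 TPM floor with a 3-fold difference were Nccrp1 (lowest SHR rat 0.897 TPM), Rasd2 (0.871 TPM) and Vom2r9 (0.70 TPM), and on the Wistar side Tpm1 NM_001034068 (lowest Wistar rat 0.80 TPM). The next on that side, Upk3a (0.149 TPM) and Golt1a (0.0636 TPM), lay far below it.

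When each rat was left out in turn and the rule applied to the other 7, it took 44 to 49 records, which include the 41 by construction. Over the 8 rats this gave 372 choices of a record, of which 328 were the 41 records themselves, whose left-out rat met the rule in any case. In the 44 choices of other records, the rat that had not been used lay on its own strain's side in 33 and 3-fold apart in 3. In the other 11 it lay within or beyond the range of the other strain. Such records were outside the 41 because of that rat, so it could be 3-fold apart only where it was under the 1 TPM floor. The 3 are thus fixed by the rule, and the counts describe the records without a held-out test.

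Genes next to the 41 records were compared between the strains, and 2 of them, Niban2 and Pcdhga2, overlap a gene of the 41 and are left out. In the gene order of GRCr8, 70 other neighbouring genes within 1 Mb were tested, and 3 were called by edgeR's quasi-likelihood test at an adjusted p under 0.05, which is 4.29% against 2.85% of all tested records. Polr3c, a subunit of RNA polymerase III next to Nudt17, was 16.4 ± 2.5 TPM in Wistar and 5.65 ± 1.23 TPM in SHR (SD, n = 4 each). Its log2 fold change was -1.52 (SE 0.20, edgeR adjusted p = 0.00265), the same direction as Nudt17. Tor1b, an ATPase of the endoplasmic reticulum next to Ptges, rose with a log2 fold change of 0.79 (SE 0.14, edgeR adjusted p = 0.0151), as Ptges was also higher. Rab15, a small GTPase of endosomes next to Gpx2, had a log2 fold change of 0.68 (SE 0.13, edgeR adjusted p = 0.0205), opposite to Gpx2. Apart from the 2 Tpm1 records of 1 gene, no pair of the 39 records with a symbol lay within 1 Mb of each other, and NM_080892 and NM_001014221 could not be placed.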

How the data were processed

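RNA of right stellate ganglia was sequenced in 8 rats. The authors quantified reads against rat RefSeq transcripts with Salmon 0.8.2 (rn6, after FastQC 0.11.7, per the submitters' processing notes), and the deposited files give for each record an estimated count, the TPM, and the length and effective length. The labels name a stranded mRNA kit, whereas the methods of the study describe SMARTer amplification. Records were chosen on the deposited TPM. The members, gene lists and rule for named records were chosen with earlier results of these data known. The rule named in each direction the 12 records furthest apart, the 5 most abundant, those at the limits, in a list, in genes with several records, and with extreme spread, and the other members were named to account for all. Symbols came from a RefSeq table of GRCr8, which matched 17360 of 18314 records (94.8%), and its coordinates were not combined with the files. Rounded counts were tested with edgeR 4.0.16 (quasi-likelihood, TMM, filterByExpr, Benjamini-Hochberg) in R 4.3.3, which was tested on simulated data. The edgeR p-values set the difference between the strains against the spread between these rats, and they cannot separate strain from blood pressure. DESeq2 1.42.0 was an alternative. A count was called not whole when over 0.002 from a whole number in a rat. The limit that a count of 0 allows was 3 counts per library and covers counting error only.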

Additional observations from a re-analysis of the deposited data

Results flagged for a closer look

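A rat far from the other 3 of its strain was found by Dixon's test in 5 of 80 groups of 4 rats, where chance gives about 1 in 20 groups, or 4. Cgm4 was at 0.135 TPM in Wistar 2 against 0.0459 to 0.0532 TPM in the others, all of these on few counts. Gpr35 was at 6.88 TPM in Wistar 1 against 3.17 to 3.74 TPM, and Prnd was at 4.96 TPM in Wistar 2 against 2.89 to 3.05 TPM. Both Tpm1 records had a rat apart in the lower strain. NM_001034072 was at 1.48 TPM in Wistar 4 and at or next to 0 in the others, and NM_001034069 was at 10.1 TPM in SHR 2 against 2.32 to 2.96 TPM.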

How the results depend on the processing

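The number of records moved with the limit. At 2-fold 31 were higher in SHR and 45 in Wistar, at 5-fold 12 and 14, and with strain medians in place of the extreme rats 110 and 157. Leaving out each rat gave 18 to 20 higher in SHR and 25 to 30 higher in Wistar, and can only add records. TMM-scaled CPM in place of TPM gave 16 and 23, of which 14 and 22 were among the 41. The floor was then 1 CPM, which is not corrected for length, so scaling and floor changed together. DESeq2 size factors with record length gave 18 and 23. Summing records to genes gave 13 and 23, and summing read-sharing pairs, an alternative chosen after seeing the data, 15 and 20. A floor of 0.5 or 5 TPM gave 21 and 25 or 12 and 17. Over the whole table DESeq2 called 782 records (353 higher and 429 lower in SHR) against 389 by edgeR (158 and 231), and leaving out each rat gave 237 to 454. The cause was not tested. With the replicate number as a block 132 were called. Rats of the same number did not deviate together (correlations of -0.29, -0.12, -0.158 and -0.0381), so the numbers do not pair them. Of 390 folds of 39 single records under other settings, 6 moved and none reversed, as the separation of the strains nearly fixes. Folds of records at 0 to 9 counts in a strain rest on few reads.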

Other observations

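Some records missed the rule because of 1 rat, chosen here after their values were seen. The nuclear receptor Nr1i3, the constitutive androstane receptor of drug metabolism, has 2 records that changed places in SHR 3. NM_001270840 was at 9.79, 9.68, 9.66 and 10.2 TPM in Wistar and at 1.51, 1.02, 11.6 and 1.51 TPM in SHR, and NM_001270838 was at 2.0 to 2.21 TPM in Wistar and at 9.35, 10.4, 2.63 and 8.96 TPM in SHR. SHR 3 was near the Wistar levels in both. Lpal2 was at 1.32, 1.09, 25.8 and 1.40 TPM in Wistar and at 5.99 to 8.60 TPM in SHR, so that Wistar 3 alone was above the SHR rats. Cxcl12, a chemokine, was at 4.89 to 12.6 TPM in Wistar and at 16.6, 1.19, 1.46 and 1.29 TPM in SHR, and the fatty acid transporter Cd36 at 3.10 to 8.12 TPM in Wistar and 3.38, 0.470, 0.544 and 0.873 TPM in SHR. SHR 1 stood apart from the other SHR rats in both. It also had the highest sum of the adipocyte markers, at 219, 23.8, 15.5 and 21.1 TPM in SHR rats 1 to 4 and 18.3 to 111 TPM in Wistar, with Fabp4 at 115 TPM in SHR 1 and 4.85 to 10.6 TPM in the other SHR rats. The part of fat tissue in Cd36 and Cxcl12 was not tested.

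The Wistar rats also split for other MHC records as they did for RT1-Bb, and examples are given here, chosen after their values were seen. RT1-CE16 was at 12.9, 0.921, 30.6 and 1.05 TPM in Wistar rats 1 to 4, and the RT1-CE5 record NM_001033986 was at 0, 15.7, 0 and 19.0 TPM. The other RT1-CE5 record, NM_001008843, went the opposite way, at 2.61, 0.451, 6.32 and 0.378 TPM. The part of read division between the records in this split was not tested. Rats 1 and 3 were alike and rats 2 and 4 were alike in each of these records, as they were in the share of RT1-Bb in its pair.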
